A study of Rattus norvegicus with 3 samples.

Results

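Wide H3K14Ac domains are merged stretches of chromatin, 2000 bp or longer, in which every library of the series had at least 1 peak of acetylation at lysine 14 of histone H3. Peaks of the 3 libraries were merged where they overlapped by at least 1 bp on chromosomes 1 to 20 and X of the rat build rn4. A merged region was taken as a wide domain when it held a peak of each library and was at least 2000 bp wide. The domains were thus chosen by their width and by the presence of a peak in all 3 libraries, and both are given below as a description. There were 388 such domains among 36559 merged regions, of which 11189 held a peak of all 3 libraries.

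Acetylation of lysine 14 on histone H3 is laid down by acetyltransferases such as GCN5, PCAF and p300/CBP and is removed by histone deacetylases. It weakens the hold of the histone tail on DNA, is bound by bromodomain proteins, and is found mainly at active promoters and enhancers. In the first weeks after birth the rat cerebellum is still forming: granule cell precursors divide and migrate inwards, while Purkinje cells grow their dendrites and receive their synapses.

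The libraries came from the cerebellum of Gunn rats (strain label Hds Blue:Gunn-UDPGTj) at postnatal day 9, precipitated with the antibody 07-353 against H3K14Ac. Gunn rats carry a defect of the enzyme that conjugates bilirubin, so that hyperbilirubinemic pups (jj) are jaundiced while their normobilirubinemic littermates (ctrl) are not. The genotype of the ctrl pups is not given in the sources used here. A single animal gave jj replicate 1 (jj1 below), whereas jj replicate 2 (jj2 below) and the ctrl library each pooled 3 animals. Sequencing took 2 runs for the 4 jj animals and 1 run for the 3 of ctrl, so run and condition cannot be told apart. With 1 ctrl library, a difference between jj and ctrl has no replicate error on the ctrl side, and none was tested. The tissue was homogenised, so that acetylation in more cells and more acetylation per cell cannot be told apart.

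Each deposited list gives the position of every broad peak and its fold, which is the ratio of the coverage in the peak to the background that the peak caller MACS2 took at that site. On the chromosomes used, the list of jj1 held 29428 peaks, that of ctrl 20871 and that of jj2 13537. The lists carry no number of reads. A usual background, solved for the combination of fold and p-value that recurred most in each list, was 0.589 fragments per position in jj1, 0.539 in ctrl and 0.345 in jj2. That combination belonged to 4.96%, 6.28% and 1.51% of their peaks over all sequences of the build, not only the chromosomes used. The number of peaks and this background put the libraries in the same order, with ctrl between the jj libraries. That order returns in most of the values below, and its part in them was not tested.

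The wide domains were a small set, and by the width rule they held a larger share of the merged length than of the regions. They were 3.47% of the regions shared by the 3 libraries and took up 1.03 Mb, or 10.1%, of their 10.2 Mb. Most were only a little over the limit of 2000 bp. The median width was 2422 bp, with quartiles at 2153 and 2855 bp, and the widest domain measured 11032 bp. There were 214 domains (55.2%) under 2500 bp, 99 from 2500 to 2999 bp, 52 from 3000 to 3999 bp, 15 from 4000 to 4999 bp and 8 of 5000 bp or more. The other 10801 shared regions, all under 2000 bp by the rule, had a median width of 765 bp.

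The limit of 2000 bp did not fall in a gap of the width distribution. The narrowest domains were chr4:89684140-89686139 with 2000 bp, chr1:209949598-209951602 with 2005 bp and chr16:18541657-18543662 with 2006 bp. The widest shared regions left out were chr7:73825721-73827714 and chr12:43891946-43893939, each with 1994 bp, and chr3:47185600-47187592 with 1993 bp. The 3 regions just outside were covered alike in all libraries, by 1947 to 1993 bp of peak in jj1, 1680 to 1760 bp in jj2 and 1866 to 1984 bp in ctrl. Just inside, chr1:209949598-209951602 was covered by 1993, 1733 and 1927 bp in jj1, jj2 and ctrl, and chr16:18541657-18543662 by 1999, 1794 and 1951 bp. The narrowest domain was of another kind. At chr4:89684140-89686139 jj1 had a peak of 2000 bp, while jj2 had 416 bp and ctrl 473 bp.

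The merged width of a domain can come from 1 library alone, and for many domains it did. A single peak of 2000 bp or more was present in all 3 libraries in 122 domains (31.4%). In 83 domains it was present in 2 libraries, in 169 in 1 library and in 14 in none, so that those 14 reached the limit only by joining peaks of different libraries. jj1 had such a peak in 358 domains, ctrl in 212 and jj2 in 131. Of the domains with a wide peak in 1 library only, 153 had it in jj1, 15 in ctrl and 1 in jj2. Wide peaks were also a larger share of the whole list of jj1 (443 peaks, 1.51%) than of those of ctrl (217, 1.04%) and jj2 (133, 0.982%).

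The covered length inside the domains followed the same order. Peaks of jj1 covered a median of 2377 bp per domain, those of ctrl 2089 bp and those of jj2 1732.5 bp. As a median share of the domain these were 99.8%, 93.2% and 66.7%. jj1 covered the most in 308 of the 388 domains and jj2 the least in 305. The ctrl library lay strictly between the jj libraries in 250 domains, at or above both in 69 and at or below both in 69. The width rule has a part in the order of the libraries, since 153 domains had a wide peak in jj1 only. This order, and the lengths and overlaps below, thus describe domains chosen in part through jj1. Pooled over the total length of the domains, jj1 covered 97.1%, ctrl 79.6% and jj2 64.4%. In the narrower shared regions the pooled shares were 96.7% in jj1, 83.6% in ctrl and 74.3% in jj2, in the same order.

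Taken base by base, 631 kb of domain length (61.1%) was covered in all 3 libraries. A further 181 kb (17.5%) was covered in jj1 alone and 167 kb (16.2%) in jj1 and ctrl. Length covered in both jj libraries and not in ctrl was 24.7 kb (2.39%), and length in ctrl alone was 19.85 kb (1.92%). The bases that both jj libraries had and ctrl lacked were thus few beside those that jj1 shared with ctrl and jj2 lacked. In the narrower shared regions 69.5% of the length was covered in all 3 libraries and 12.0% in jj1 alone.

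A domain that was 1 peak in a library could be several peaks in another. It was split into more than 1 peak in 4 domains (1.03%) in jj1, in 58 (14.9%) in ctrl and in 60 (15.5%) in jj2. Splitting was absent from 302 domains. It was seen in both jj2 and ctrl in 34 domains, in ctrl alone in 24 and in jj2 alone in 24. Of the 4 domains split in jj1, 2 were also split in jj2 and none in ctrl.

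The gaps between the pieces of a split domain were short. They measured 1054 to 2399 bp (median 1206 bp, 63 gaps) in jj2 and 1010 to 2378 bp (median 1161.5 bp, 60 gaps) in ctrl. Neighbouring peaks nowhere lay closer than 1149 bp in the list of jj1, 1045 bp in that of jj2 and 1009 bp in that of ctrl, so a shorter interruption could not appear as a split. Of the 63 gaps of jj2, 60 were covered from end to end by a peak of jj1 and 24 by a peak of ctrl. All 60 gaps of ctrl were covered by jj1, and 4 of them by jj2. The 4 gaps of jj1 were all covered by ctrl. By the merging rule, peaks of the other libraries must bridge each gap inside a domain. That the gaps were covered follows from this rule, and only the library that covered them does not.

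Wider domains were split more often in jj2 and ctrl. In jj2 the split share was 8.88% under 2500 bp, 15.2% from 2500 to 2999 bp, 30.8% from 3000 to 3999 bp and 43.5% in the 23 domains of 4000 bp or more. In ctrl the same classes gave 11.7%, 13.1%, 26.9% and 26.1%. In jj1 they gave 0, 2.02%, 0 and 8.70%, the last being 2 of 23 domains. Width chose the domains and also limits splitting, since a region must hold a gap of about 1000 bp besides its peaks, so this rise is a description only.

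Agreement between libraries was measured in each domain as the length covered in both libraries over the length covered in either. The median of this length overlap was 91.5% between jj1 and ctrl, 82.4% between jj2 and ctrl and 67.8% between the jj libraries. Each jj library thus overlapped ctrl more than it overlapped the other jj library. In the narrower shared regions these medians were 85.3%, 83.0% and 77.0%, in the same order and closer together. The domains varied more among themselves: 207 had an overlap of 90% or more between jj1 and ctrl, and 87 were under 50%. Under 50% were also 88 domains between jj2 and ctrl and 138 between the jj libraries.

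Between each jj library and ctrl, the outer edges of the peaks lay close together in most domains. The left edges of jj1 and ctrl differed by a median of 54 bp and the right edges by 50 bp, and they were within 100 bp of each other in 70.6% and 69.6% of domains. Between jj2 and ctrl 58.5% of left and 64.2% of right edges were within 100 bp, and between the jj libraries 46.4% and 51.3%. The edges of the jj libraries thus lay closer to those of ctrl than to each other. Edges over 500 bp apart were found at the left of 48 domains between jj1 and ctrl, 72 between jj2 and ctrl and 106 between the jj libraries.

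Across the 388 domains the covered length was ranked alike to a moderate degree. Spearman's rho was 0.73 between jj2 and ctrl, 0.59 between jj1 and ctrl and 0.47 between the jj libraries. The fold was ranked more alike, with a rho of 0.94 between jj1 and ctrl, 0.87 between jj2 and ctrl and 0.83 between the jj libraries. These values describe domains of the same 3 libraries, which share the genome and its local background and are not independent points.

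The extremes of length overlap are given as examples. The lowest between jj1 and ctrl was 7.52%, at chr2:127517908-127520686. There jj1 had 2270 bp at a fold of 3.05, ctrl 718 bp at 3.25 and jj2 310 bp at 3.47, and no base was covered in all 3 libraries. It was 1 of 2 domains in which jj2 and ctrl shared no base, the other being chr16:21517887-21520146. At chr6:116710083-116712334, with an overlap of 11.2%, jj1 covered 2252 bp, jj2 271 bp and ctrl 252 bp. At chr9:1091270-1093609, with 15.6%, the covered lengths were 2340, 1218 and 365 bp in jj1, jj2 and ctrl. In each of these 3 domains jj1 covered the most, and ctrl covered under 1000 bp. The jj1 peaks of these 3 domains had a deposited −log10 q-value of 1.11, 1.21 and 1.89, while the median over all domains was 12.9.

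At the other end, chr13:19200251-19205009 had an overlap of 99.9%. It was covered by 4756 bp in jj1, 4732 bp in jj2 and 4758 bp in ctrl, at folds of 1.85, 2.10 and 1.96. At chr13:30456990-30462717, also at 99.9%, the libraries covered 5720, 5546 and 5728 bp at folds of 1.67, 1.91 and 1.82. The third was chr13:19118762-19121945 with 99.8%, where jj2 was split into 2 peaks and covered 1763 bp against 3178 bp in jj1 and 3172 bp in ctrl. The highest overlaps were thus reached at sites of low fold on chromosome 13.

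The wide domains had lower median folds than the narrower shared regions in every library. The median fold was 4.54 in jj1, 4.57 in jj2 and 4.64 in ctrl, beside 8.57, 6.44 and 7.60 in the narrower shared regions. Within their own lists the medians of the domains stood at percentile 49.8, 27.5 and 43.5. Wide domains were therefore low for shared regions, and in the middle or lower part of all peaks. A fold is averaged over the whole peak, and over all peaks of a domain by their length where it was split.

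The highest fold of a wide domain was 8.05 in jj1, under the median of the narrower shared regions, and 11.0 in ctrl and 10.1 in jj2, above it. The 3 domains whose lowest percentile of fold over the libraries was highest were chr6:25150041-25152076, chr7:135314902-135317120 and chr5:154226812-154228845. The first had a fold of 7.97 in jj1, 9.61 in jj2 and 9.97 in ctrl. Its width came from jj1, which covered 2036 bp, while jj2 covered 522 bp and ctrl 491 bp. The second had folds of 7.95, 10.1 and 7.72 over 2218, 690 and 1037 bp, and the third had folds of 6.76, 7.72 and 7.34 over 2034, 651 and 1994 bp. In all 3 domains jj1 covered nearly the whole width and jj2 only a minor part of it.

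The wide domains were spread over the 20 autosomes and chromosome X, and their density differed between chromosomes. Of the shared regions, 28 of 305 (9.18%) were wide on chromosome 18, 33 of 374 (8.82%) on chromosome 17 and 30 of 373 (8.04%) on chromosome 13. On chromosome 1 it was 41 of 1280 (3.20%), on chromosome X 5 of 260 (1.92%) and on chromosome 8 6 of 614 (0.977%). The domains of chromosomes 13, 17 and 18 were also wider, with median widths of 2801.5, 2725 and 2846.5 bp.

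Measured from edge to edge, the distance from a domain to the nearest other wide domain varied widely. Its median was 1.19 Mb, with a range from 1131 bp to 30.3 Mb. There were 65 domains within 10 kb of another and 206 (53.1%) more than 1 Mb away. The closest pair was chr13:19207473-19214276 and chr13:19215408-19217484, 1131 bp apart. To the nearest shared region of any width the median distance was 24.6 kb, beside 48.0 kb for the narrower shared regions.

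Much of the short spacing came from 8 runs, defined here as chains of at least 3 wide domains with gaps of no more than 50 kb. This definition was made after the values were seen. The runs held 64 domains (16.5%) on 4 chromosomes, and 57 of the 64 were on chromosomes 13, 17 and 18. The run with the most domains was chr18:38705052-38834395 with 16, which filled 49.1% of its span of 129344 bp. On chromosome 13, chr13:19118762-19231196 held 11 domains and chr13:30428007-30493083 held 9, the latter filling 52.5% of its span. Chromosome 17 had 3 runs within a short distance, chr17:49299828-49385609 with 6 domains, chr17:49448558-49475870 with 4 and chr17:49555508-49721439 with 11. The other 2 runs were chr2:132254-247438 with 4 domains and chr2:556360-616007 with 3, both near the start of chromosome 2.

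For the wide domains outside the runs, the nearest wide neighbour was at a median of 1.69 Mb, and 6 pairs of them lay within 10 kb. In the runs the median was 4.02 kb. This contrast follows from the limit of 50 kb that defines a run and is a description only. With the domains of runs left out of both counts, the share of shared regions that were wide was 4.15% on chromosome 18, 3.40% on chromosome 17 and 2.83% on chromosome 13, within the range of the other chromosomes, which reached 4.91% on chromosome 16. Runs hold wide domains only, so leaving them out lowers the share on the chromosomes with runs by construction. The narrower shared regions within the spans of the runs stayed in the count. The median distance to the nearest shared region was 35.9 kb outside the runs. No rn4 gene annotation was used here, so no gene is named at these positions.

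The widest domains were concentrated in the runs. Of the 10 widest, 9 lay in a run, and of the 23 domains of 4000 bp or more, 17 did. The median width was 3117 bp in the runs and 2364 bp in the 324 domains outside them, whose widest measured 6194 bp.

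The widest domain of all was chr18:38741789-38752820, 11032 bp long. In jj1 it was a single peak of 11019 bp, in jj2 it was 3 peaks covering 6929 bp and in ctrl 4 peaks covering 7714 bp. The folds were 1.58, 1.73 and 1.68. It was the most divided of all domains, and its fold was among the lowest of each list, with percentiles of 0.0442 in jj1, 0.0960 in jj2 and 0.0671 in ctrl.

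In the same run, chr18:38725039-38731065 was a single peak in each library, of 5927 bp in jj1, 5968 bp in jj2 and 6027 bp in ctrl. Its length overlap was 98.3% or more in every pair of libraries. Domains of a run could thus be split or whole at folds that were nearly the same, here 1.68, 1.77 and 1.78.

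On chromosome 13 the domain chr13:19207473-19214276, of 6804 bp, was 1 peak in jj1, 3 in jj2 and 2 in ctrl, covering 6751, 4109 and 5760 bp. Its folds were 1.85, 1.92 and 2.03. Its neighbour chr13:19215408-19217484 was 1 peak in each library, of 2035, 2063 and 1913 bp. In chr13:19190075-19195438 the single peaks measured 5052 bp in jj1, 4625 bp in jj2 and 5364 bp in ctrl, and in chr13:30480796-30485836 they measured 5002, 5033 and 5041 bp. Over the domains of a run, the median length overlap was 94.7% between jj1 and ctrl, 86.2% between jj2 and ctrl and 91.5% between the jj libraries in chr13:19118762-19231196. In chr13:30428007-30493083 these medians were 99.2%, 98.5% and 93.1%, higher in every pair.

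The 3 widest domains of chromosome 17 had higher folds than the domains of chromosomes 13 and 18 among the 10 widest. At chr17:49623328-49628369 jj1 covered 4902 bp in 1 peak, jj2 3336 bp in 2 peaks and ctrl 3692 bp in 2 peaks, at folds of 2.58, 2.81 and 2.90. At chr17:49614977-49619797 the covered lengths were 4500, 2286 and 4821 bp in 1, 3 and 1 peaks. At chr17:49299828-49304639 each library had 1 peak, of 4812, 3209 and 3864 bp. In all 3 domains jj2 covered the least.

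The widest domain outside the runs was chr14:105000674-105006867, of 6194 bp. It was covered by 6172 bp in jj1, 930 bp in jj2 and 4926 bp in ctrl, in 1, 1 and 2 peaks, at folds of 3.13, 3.96 and 3.35. The length overlap with ctrl was 79.2% for jj1 and 18.9% for jj2. Next in width outside the runs, named after their values were seen, came chr6:132382489-132387157, chr18:72293709-72298074, chr14:48777409-48781733 and chr1:176457644-176461782. They were 4669, 4366, 4325 and 4139 bp wide. The first was split in jj2 and ctrl alike, covering 2916 and 2918 bp with an overlap of 96.8%, while jj1 covered all 4669 bp. The reverse was seen at chr14:48777409-48781733, where ctrl had 1 peak of 4182 bp and each jj library had 2 peaks, covering 2469 bp in jj1 and 2953 bp in jj2. The other domain split in both jj libraries and not in ctrl was chr18:38763961-38768490, in a run.

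A domain away from the runs could be as divided as a much wider one. After the domains with 8 and 6 peaks summed over the libraries, several had 5, and the first of these in chromosome order was chr1:182887819-182889972, 2154 bp wide. It had 1 peak of 2083 bp in jj1, at a fold of 6.69, and 2 peaks each in jj2 and ctrl, covering 759 and 847 bp at folds of 5.48 and 6.14. Here jj2 and ctrl overlapped by 69.4% of their length and the jj libraries by 31.9%.

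The runs and the low folds went together. A fold under 3 in all 3 lists was found in 43 domains, 15 on chromosome 17, 14 on chromosome 13, 13 on chromosome 18 and 1 on chromosome 1. Of these 43, 42 lay in a run. In the narrower shared regions such low folds were rare, in 20 of 10801 (0.185%), and 16 of the 20 lay inside the span of a run. In the run of chromosome 18 the median fold was 1.82 in jj1, 2.03 in jj2 and 1.98 in ctrl, and in chr13:30428007-30493083 it was 1.67, 1.91 and 1.82. The runs of chromosome 2 differed, with median folds of 4.35, 4.08 and 4.26 in the first and 3.35, 3.57 and 3.40 in the second. In jj1 the median fold was 2.33 over all domains in runs and 4.76 over those outside.

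These low folds did not mean weak peaks by the deposited p-values. In the 15 domains with a fold under 2 in all lists, the median −log10 p-value was 14.2 in jj1, 11.2 in jj2 and 14.9 in ctrl. At the usual background of each library, their median folds would give 1.39, 1.67 and 1.51. By the formula assumed here to link fold, p-value and background, a low fold with so high a −log10 p-value requires a high background at the site. Worked back from both values, the background of these 15 domains had a median of 191 fragments per position in jj1, 82.6 in jj2 and 131 in ctrl. Outside the runs, the same calculation gave medians of 6.85, 2.11 and 3.96 in the 288 of 324 domains where it had a single solution. These medians stood above the usual background of each library. However, no value was obtained for ctrl at chr2:127517908-127520686, which had the usual combination of fold and p-value. Domains near the usual background can thus be missing from the 288, so the medians do not describe wide domains in general. The values are approximate, since they take each peak as flat. All 15 lie in the runs of chromosomes 13 and 18. By this calculation, these sites carried a dense coverage in all libraries, jj and ctrl alike, over which these domains were called at folds under 2. The cause of the coverage was not tested. No rn4 sequence was examined here, so it is not known how uniquely reads map to these sites, nor how far the widths, folds and calls in the runs stand for acetylated chromatin.

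The ratio of this site background between libraries was nearly constant over the 15 domains. For jj1 to ctrl it ranged from 1.40 to 1.52 with a median of 1.46, between the 1.09 of the usual backgrounds and the median of 1.75 over the 288 domains outside the runs. For jj2 to ctrl it ranged from 0.577 to 0.689 with a median of 0.645, beside 0.641 and 0.558.

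The authors also called peaks in each jj library with ctrl as the control, a readout that did not choose the domains but comes from the same libraries. Of the 388 domains, 360 (92.8%) held a peak of jj1 called against ctrl. The background is high: 31.9% of all merged regions and 71.0% of the regions shared by the 3 libraries held one. The share rose with width among shared regions, from 15.0% under 500 bp through 68.6% from 500 to under 1000 bp to 87.0% from 1000 to under 2000 bp. The value for the wide domains continues this rise. It was 60 of 64 in the runs and 300 of 324 (92.6%) outside, so for jj1 the share was about the same with and without the runs. When a domain was called, the peak against ctrl covered a median of 91.9% of its length.

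For jj2 the picture was another. A peak called against ctrl was held by 28 of the 388 domains (7.22%), beside 0.331% of all merged regions and 0.518% of the shared regions. Nearly all of this came from the runs, where 27 of 64 domains (42.2%) held one, while outside it was 1 of 324 (0.309%), near the background. The 1 domain outside was chr14:48777409-48781733. The domains took up 32 of the 125 peaks of that list on these chromosomes and 388 of the 12014 peaks of the list of jj1. Both lists have the same ctrl library as their control and are not independent of each other.

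Within the runs, the calls of jj2 against ctrl were found on chromosomes 13, 17 and 18. All 9 domains of chr13:30428007-30493083 held one, 6 of 11 in chr13:19118762-19231196 and 10 of 16 in the run of chromosome 18. The 3 runs of chromosome 17 had 1, 0 and 1, and those of chromosome 2 had 0. The 2 runs of lowest median fold held the most calls, while chr17:49448558-49475870, with a median fold of 2.26 in jj1, held 0. When a domain was called in jj2, the peak against ctrl covered a median of 28.4% of its length.

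The 5 widest domains with a peak in both lists against ctrl were chr13:19207473-19214276, chr18:38725039-38731065, chr13:30456990-30462717, chr13:19190075-19195438 and chr13:30480796-30485836. In jj1 the peaks called against ctrl covered 6693, 6027, 5710, 5351 and 5009 bp of them, nearly the whole domain in each. In jj2 they covered 2566, 296, 1074, 2735 and 2006 bp. By the rule each domain also holds a ctrl peak, and in these 5 the widest ctrl peak measured 3569 bp or more. The widest domain of all, chr18:38741789-38752820, was called over its whole 11032 bp in jj1 and not at all in jj2. With 1 ctrl library and different runs, no difference in acetylation between jj and ctrl can be read from these calls.

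Without the runs, 324 domains remained. Of their length 58.3% was covered in all 3 libraries, beside 71.0% in the runs. Splitting was found in 2 domains in jj1, 45 (13.9%) in jj2 and 47 (14.5%) in ctrl. The median length overlap was 91.2% between jj1 and ctrl, 80.4% between jj2 and ctrl and 62.1% between the jj libraries. In the runs these medians were 93.0%, 88.4% and 78.3%.

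Some wide regions were left out because a library had no peak in them. Of 497 merged regions of 2000 bp or more, 388 held a peak of all 3 libraries, 45 of jj1 and ctrl, 9 of both jj libraries and 2 of jj2 and ctrl. Another 52 were called in jj1 alone and 1 in ctrl alone. Regions missing only jj2 thus outnumbered those missing only ctrl. Of the 109 wide regions outside the set, 36 (33.0%) held a peak of jj1 called against ctrl and 0 held one of jj2. Over all merged regions these shares were 31.9% for jj1 and 0.331% for jj2.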

How the data were processed

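H3K14Ac ChIP-Seq was analysed in 3 libraries, 2 jj and 1 ctrl. Per the methods and the submitters' processing notes, the authors mapped paired-end reads to rn4 with Bowtie2, checked them with FastQC, filtered duplicates, called broad peaks with MACS2 and annotated them with HOMER; versions and options are not given in the sources used here. The deposited fold is a ratio over the site's background. Like it, the p-value and q-value, deposited as −log10, are averages over the peak. Peaks were called per library, after the animals of jj replicate 2 and those of ctrl had been pooled. The 2 lists called against ctrl were used for positions only, as their fold, p and q columns hold the authors' comparison.

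Lists were merged and measured in Python 3.11.15 (numpy 2.4.6, pandas 2.3.3), counting positions from 1. Values of a domain with several peaks in a library are means weighted by peak length. Backgrounds were solved in scipy 1.17.1 from p, a Poisson tail, and the fold, read as height over background with 1 added to each. Merging and distances were tested on simulated data. The solving of backgrounds was tested only at folds under 2, on p-values made with the same formula. The formula itself and the flat peak were thus not tested. The condition was not tested, ctrl being 1 library. No depth is known, so no interval is given on any peak.

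The regions named are the 10 widest domains, the 3 with most peaks, the 3 whose lowest fold percentile is highest, the 5 widest called against ctrl in both lists, the closest pair, the 3 on either side of the width limit, and the 3 lowest and 3 highest length overlaps of jj replicate 1 and ctrl. Also named are the domains in which jj replicate 2 and ctrl shared no base, and those split in both jj libraries and not in ctrl. The members and lists were chosen with earlier results of these data known. Runs, fold classes of 2 and 3 and the domains named outside runs were chosen after values were seen. Alternatives were other width limits, merging rules, a limit on q, all sequences, each library left out, and runs left out. Genes, sequences and the HOMER annotation were not analysed here.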

Additional observations from a re-analysis of the deposited data

How the results depend on the processing

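Of 60 alternatives computed for 7 results, 33 stayed within 1.5 times the main count or within the 95% interval of the main value, and 27 moved. The results are counts, shares and medians without a direction, so a change of direction was not examined. Intervals treat the domains as independent and carry no error between libraries. For the length covered in all 3 libraries, a binomial interval with the domains as n was used. That share is not a count of domains, so its interval is a tolerance only and measures no spread. The exclusion of runs and the result for jj replicate 2 called against ctrl were added after seeing the data. Merging within 1 kb or at an overlap of 50% of the shorter peak moved none of the results.

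With a limit of 1500 bp there were 989 domains, 93.4% were 1 peak in jj replicate 2, 89.5% held a jj replicate 1 peak called against ctrl and 3.13% a jj replicate 2 peak, and the median distance was 520 kb. With 3000 bp these were 75 domains, 65.3%, 98.7%, 25.3% and 117 kb, the length covered in all 3 libraries was 66.7% and the length overlap of jj replicate 1 and ctrl 95.0%. The counts follow from the limits by construction. With peaks of a −log10 q of at least 5 there were 232 domains, 91.4% were 1 peak in jj replicate 2, 97.0% and 10.8% held a peak called against ctrl in jj replicates 1 and 2, the distance was 2331 kb and the overlap 94.4%. Over all sequences the distance was 712 kb and 11.2% held a jj replicate 2 peak called against ctrl. With runs left out these were 1722 kb and 0.309%, the latter beside 7.22% with them. Apart from the counts, the cause was not tested.

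Leaving out 1 library at a time gave 233 to 428 domains, the lowest without jj replicate 1 and 373 without ctrl. Domains in 1 peak in jj replicate 2 were 84.7% to 91.0%. Without jj replicate 2, 87.4% held a jj replicate 1 peak called against ctrl and the overlap of jj replicate 1 and ctrl was 88.1%. Without jj replicate 1, 11.2% held a jj replicate 2 peak called against ctrl. Length covered in all 3 libraries could not be computed with a library left out, nor results that need the library left out. No paired analysis was possible because ctrl has 1 library. No read totals come with the lists, so what depth limits is not known.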

Other observations

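Wide shared domains were also found on the sequences of rn4 that are not placed on a chromosome, which were kept out of the set. There, 105 of 512 regions shared by the 3 libraries (20.5%) were 2000 bp or wider, with a median width of 2786 bp and a maximum of 9378 bp. Their median fold was 3.29 in ctrl, 3.13 in jj replicate 1 and 3.33 in jj replicate 2. Of the 105, 39 had a fold under 3 in all lists. A peak of jj replicate 1 called against ctrl was held by 83 of them (79.0%), beside 62.9% of the 512 shared and 24.4% of all 2185 merged regions of these sequences. For jj replicate 2 it was 27 (25.7%), beside 7.42% and 1.83%.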
